A study of Mus musculus with 16 samples.

Results

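Irradiated B16F10-GP melanomas, given an X-ray dose of 5 Gy and no drug, were set against untreated melanomas of the same kind. The comparison uses 8 of the 16 libraries of the series, 4 after 5 Gy and 4 untreated, chosen by the titles of the samples, and all genes were tested. The other 8 libraries, 4 from tumours given 5 Gy with QH-II-066 and 4 given QH-II-066 alone, share the model and are read only at the end. The study asked how a compound that acts on GABA-A receptors, QH-II-066, works together with radiation in melanoma. B16F10 is a pigmented melanoma line of C57BL/6 mice, and the labels do not explain the suffix GP. Its cells were implanted in 25% Matrigel, a basement membrane gel, on the flanks of female C57BL/6 mice aged 6 to 8 weeks, and all groups share this. Mice of the 5 Gy group were irradiated on day 10 on the right flank alone, under 0.5 cm of tissue-equivalent bolus, when tumours could be felt. The untreated mice carry that label in the titles, while the protocol describes vehicle. Combined-group mice had the same dose on the morning of day 10 and QH-II-066 from that evening, 10 mg/kg a day for 7 days by intraperitoneal injection, and drug-alone mice had the same injections. The labels give neither the day of harvest nor the flank profiled, nor do they say that each library is from its own mouse. A p-value therefore speaks of the variation among libraries within groups, part of which may be technical. That spread was estimated from all 16 libraries together, so the 8 drug-treated ones also enter it.

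A subcutaneous melanoma is a mixture of tumour cells and host tissue. Fibroblasts secrete fibrillar collagens, fibrillins and small proteoglycans, which enzymes outside the cell trim and cross-link into matrix. Tissue-resident macrophages carry scavenger receptors such as CD163, MRC1, STAB1 and FOLR2, which take up haemoglobin complexes, glycoproteins and folate and are known from perivascular and skin macrophages. Radiation of tissue is known for later deposition of matrix and for changes in macrophages.

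Total counts were 26045343 to 29964394 per library after 5 Gy and 25017744 to 31680098 in untreated tumours. Levels are counts scaled to library size (CPM, with TMM scaling), and a count of 0 allows up to 0.0940 to 0.115 CPM in these 8 libraries (3 counts, counting error only). The melanocyte markers Tyr, Dct, Pmel and others of a list of 15 were present in every library, with a summed level of 17605 to 23413 CPM after 5 Gy and 23021 to 29445 CPM in untreated tumours. Replicates 2 and 4 of 5 Gy stood apart. The 20 skin epithelium markers, keratins and desmosome genes of keratinocytes, summed to 5113 and 3164 CPM in them, against 11.3 and 20.7 CPM in 5 Gy replicates 1 and 3 and 11.3 to 13.6 CPM in untreated tumours. Krt5, a keratin of basal keratinocytes, had 0.142, 799.6, 0.101 and 573 CPM after 5 Gy, against 0.334, 0, 0 and 0 CPM in untreated tumours, in the order of replicates 1, 2, 3 and 4 that is kept below. The 16 skeletal muscle markers summed to 3073 and 2152 CPM in replicates 2 and 4, against 118 and 9.89 CPM in 5 Gy replicates 1 and 3 and 8.09 to 147 CPM in untreated tumours. The 13 adipocyte markers summed to 302 to 897 CPM after 5 Gy and 80.5 to 208 CPM in untreated tumours, and the 6 mast cell markers to 27.6 to 57.9 CPM and 13.6 to 17.9 CPM, so in both the groups did not overlap, with or without replicates 2 and 4. Taken singly, 6 of the 13 adipocyte and 0 of the 6 mast cell markers had every irradiated library above every untreated one. Over all tested genes that share was 5.97%. None of the members of the 5 lists in this paragraph was called.

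**Figure D1:**
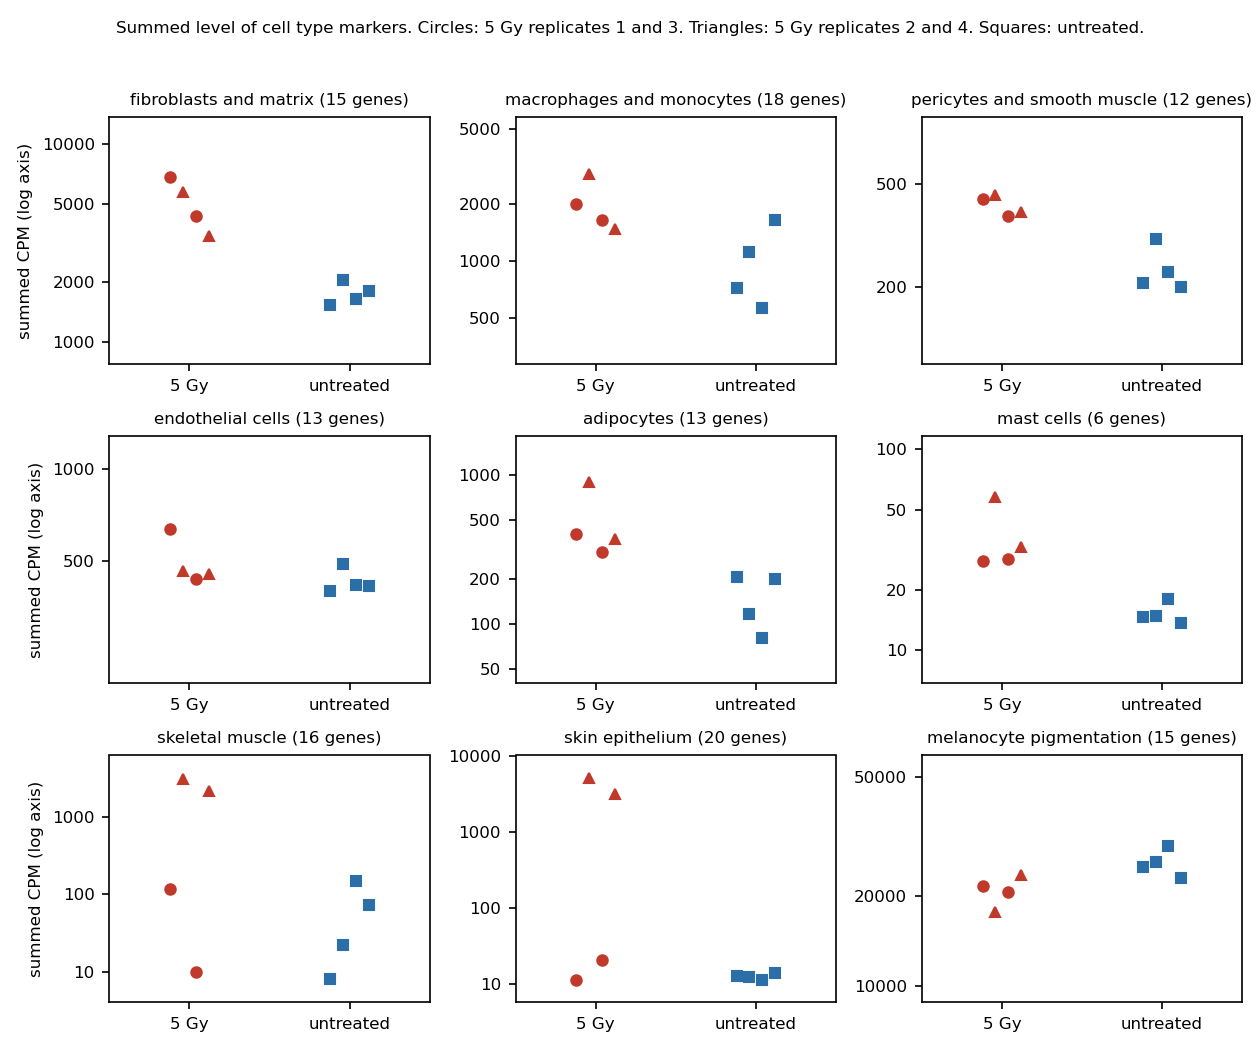
Summed CPM of cell type marker lists (log axes) in each library, 5 Gy on the left and untreated on the right. Triangles are 5 Gy replicates 2 and 4, which stand above the other libraries for skin epithelium and skeletal muscle, while fibroblast, adipocyte and mast cell sums of all 4 irradiated libraries lie above all 4 untreated sums.

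After 5 Gy, 202 genes were higher and 1 was lower than in untreated tumours among 16101 tested (edgeR quasi-likelihood test, adjusted p under 0.05), which is 1.25% and 0.00621% of the genes. Of these 203 genes, 19 belong to a list of cell type markers, 70 to a list of a pathway or matrix group alone, and 114 (56.2%) to no list. Without 5 Gy replicates 2 and 4, edgeR called 0 genes (lowest adjusted p = 0.0952), with 753 higher and 99 lower at an unadjusted p under 0.05, which is 4.49% and 0.59% of 16782 genes tested. All 202 genes were above 0 in that fit, which their selection on libraries it shares largely fixes, and 198 had an unadjusted p under 0.05. When the 3 combined-group libraries with keratin transcripts were left out as well, 22 genes passed, 0.128% of 17181, and all 22 were among the 202. The 5 Gy and untreated libraries were the same as in the fit that called 0. Folds hardly changed, while the shared spread did: Col3a1 was at 2.68 ± 0.48 and then at 2.68 ± 0.39. The edgeR adjusted p of the 22 lay between 0.0477 and 0.04996, just under the threshold. In bulk tissue, more cells of a type and more RNA per cell cannot be told apart. The count of higher genes was also 0 without 5 Gy replicate 2 alone, and 0 without untreated replicate 1, 2 or 3 (unadjusted p under 0.05 in 1304, 1707, 1881 and 1725 higher genes). It was 135 without untreated replicate 4. Leaving out 1 irradiated library gave 368 (replicate 1), 731 (replicate 3) and 101 (replicate 4). DESeq2 called 1181 genes higher (7.33%) and limma-voom 703 (4.37%). At an unadjusted p under 0.05, 1985 genes (12.3%) were higher and 453 (2.81%) lower, and at 0.01 it was 1092 (6.78%) and 46 (0.286%). The edgeR count was 12 with the skin score, 2 with the muscle score and 0 with the adipocyte score as a covariate (609 higher genes at an unadjusted p under 0.05 with the last). A gene counts as called where its adjusted p in the fit of all libraries is under 0.05, log2 fold changes are 5 Gy over untreated with their SE, and a value in square brackets is the same quantity without 5 Gy replicates 2 and 4. List members said to rise are members called higher, to be read beside the 1.25% of all tested genes. In the fit without those replicates 0 passed in every list. When all 5 libraries with keratin transcripts were left out, 0 passed in the lists of elastic fibres, proteoglycans, myofibroblasts, Wnt, axon guidance, complement and vasoactive genes.

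The 202 genes divide by how the irradiated libraries differ among themselves. In 145 of them the mean of replicates 2 and 4 lay within 2-fold of the mean of replicates 1 and 3, and the median log2 fold change over untreated was 1.98 in all libraries and 1.97 without replicates 2 and 4. Another 54 were at least 2-fold higher in replicates 2 and 4, with medians of 3.24 and 2.17. The remaining 3, Ltbp2, Col12a1 and Lox, were at least 2-fold higher in replicates 1 and 3. The sorting compares replicates 2 and 4 with 1 and 3, so it largely fixes how each median moves without replicates 2 and 4. Of the 22 genes called without all keratin-holding libraries, 18 belong to the 145, 3 to the 54 and 1 to the last 3. Every irradiated library lay above every untreated one in 199 of the 202, and in 5.97% of all tested genes. Replicates 1 and 3 on their own lay above every untreated library in 200 of the 202, and in 7.92% of all tested genes. These counts describe genes selected on the same libraries.

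**Figure D2:**
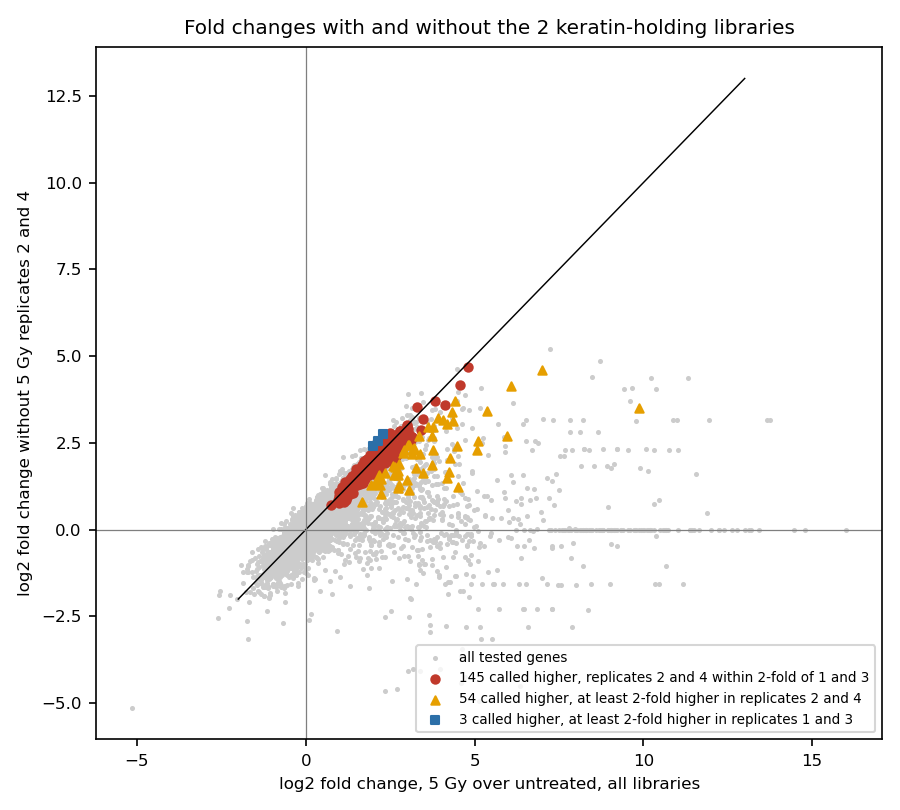
Log2 fold change of 5 Gy over untreated in all libraries (x) and without 5 Gy replicates 2 and 4 (y), with the line of equal values. The 145 genes with similar levels in all irradiated libraries (circles) lie near the line, the 54 genes higher in replicates 2 and 4 (triangles) lie below it, and the 3 genes higher in replicates 1 and 3 (squares) lie above it. These positions follow largely from how the genes were sorted.

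Genes of fibrillar collagen were higher after 5 Gy, and so were 3 of the enzymes that trim and cross-link it. Col3a1, the chain of type III collagen, had 1457, 1265, 932 and 643 CPM after 5 Gy, against 205, 118, 141 and 283 CPM in untreated tumours. Every irradiated library stood above every untreated one, and replicate 4, which holds keratin transcripts, was the lowest of the 4. The log2 fold change was 2.52 ± 0.43 (SE; edgeR adjusted p = 0.0230), and 2.68 ± 0.48 without replicates 2 and 4 (adjusted p = 0.0952). Col5a2, a chain of type V collagen that belongs to no list, had 194, 127, 97.3 and 71.7 CPM after 5 Gy, against 39.96, 31.8, 25.2 and 34.4 CPM in untreated tumours, and rose by 1.90 ± 0.33 (adjusted p = 0.0232), or 2.15 ± 0.36 without those libraries. Col1a1, Col1a2 and Col5a1, chains of the same fibrils, had log2 fold changes of 2.33 [2.498], 2.35 [2.42] and 1.83 [2.01], and all 5 collagen genes were among the 22 called without the keratin-holding libraries (adjusted p = 0.0477 for each). Among 23 tested genes of collagen processing and cross-linking, 3 rose, and the median of the list was 0.09, and 0.19 without replicates 2 and 4, against -0.08 and -0.06 over all tested genes. Lox, lysyl oxidase, which cross-links collagen and elastin, had 109, 43.6, 56.6 and 29.3 CPM after 5 Gy, against 9.79, 16.9, 10.5 and 11.96 CPM in untreated tumours, and its highest level was in replicate 1 and its lowest irradiated level in replicate 4. It rose by 2.28 ± 0.48 (adjusted p = 0.0386), and by 2.75 ± 0.50 without replicates 2 and 4, where it missed the threshold (adjusted p = 0.104). Adamts2 and Bmp1, which remove the ends of procollagen, rose by 1.93 ± 0.32 [1.80 ± 0.39] and 0.98 ± 0.21 [1.09 ± 0.24] (adjusted p = 0.0227 and 0.0409). Loxl1, a relative of Lox, was at 1.83 ± 0.46 [1.96 ± 0.54] and was not called (adjusted p = 0.0579). Of 24 basement membrane genes, whose proteins form sheets under epithelia and around vessels, none was called and the median was 0.92, or 0.37 without replicates 2 and 4. Within it Col18a1 and Lamb1 were at 1.07 ± 0.26 [0.93 ± 0.31] and 1.02 ± 0.26 [1.197 ± 0.31] (adjusted p = 0.0552 and 0.0618), while Col17a1, a hemidesmosome collagen of keratinocytes, was at 9.05 with all libraries and -0.42 without replicates 2 and 4.

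Genes of elastic fibres and of small proteoglycans, which sit on collagen fibrils and space them, were called as well. Of 17 elastic fibre genes 6 rose (median 1.73, and 2.01 without replicates 2 and 4), namely the fibrillins Fbn1 and Fbn2, Fbln2, Ltbp2, Mfap2 and Mfap4. Of 16 leucine-rich proteoglycan and hyaluronan genes 7 rose (median 1.90, and 1.73), namely Dcn, Lum, Ogn, Aspn, Bgn, Podn and Vcan. Fbln2, the microfibril protein fibulin 2, had 79.1, 61.3, 37.1 and 38.1 CPM after 5 Gy, against 15.1, 13.96, 10.6 and 17.9 CPM in untreated tumours. It rose by 1.91 ± 0.35 (adjusted p = 0.0254) and had 2.01 ± 0.41 without replicates 2 and 4 (adjusted p = 0.118). Fbn2, the fibrillin best known from developing tissue, had 6.62, 6.08, 2.94 and 2.68 CPM after 5 Gy, against 0.434, 0.462, 0.927 and 1.06 CPM in untreated tumours, a rise of 2.66 ± 0.57 [2.72 ± 0.65]. Ogn, the proteoglycan osteoglycin, had 13.5, 20.1, 4.83 and 12.04 CPM after 5 Gy, against 1.27, 0.692, 1.76 and 2.78 CPM in untreated tumours, a rise of 2.95 ± 0.66, with 2.49 ± 0.75 without replicates 2 and 4. The groups did not overlap in any of these 3. Dcn, decorin, had 105, 249, 101 and 125 CPM after 5 Gy, against 17.8, 16.6, 10.2 and 37.004 CPM in untreated tumours. Replicate 2 stood above the other irradiated libraries, all 4 were above the untreated ones, and the rise was 2.83 ± 0.56, or 2.34 ± 0.61 without replicates 2 and 4. Without strand in the counting, Fbn1 is less certain, since 20.1% of its exon bases lie in a gene on the opposite strand. Bgn and Aspn, relatives of decorin, were at 1.496 and 1.83 with all libraries and at 1.75 and 2.04 without replicates 2 and 4.

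Secreted matrix modifiers and genes of fibroblast subsets followed. Of 30 matrix proteases and inhibitors 6 rose, namely Mmp2, Mmp3, Ctsk, Adamts5, Adamts8 and Htra3 (median 1.02, and 0.92 without replicates 2 and 4). Adamts8 was low in both groups, with means of 0.360 CPM after 5 Gy and 0.00835 CPM in untreated tumours. Mmp2, a gelatinase of fibroblasts, had 61.5, 64.3, 49.996 and 31.7 CPM after 5 Gy, against 16.004, 13.5, 12.1 and 16.99 CPM in untreated tumours, with a rise of 1.82 ± 0.29 [1.93 ± 0.32] (adjusted p = 0.0227). Ctsk, cathepsin K, a protease that cleaves collagen, had 22.9, 33.2, 18.6 and 20.4 CPM after 5 Gy, against 8.05, 6.46, 6.52 and 10.2 CPM in untreated tumours, with a rise of 1.61 ± 0.27 [1.41 ± 0.30]. In both genes the groups did not overlap, while in Mmp3, stromelysin 1, replicate 4 at 13.3 CPM lay below untreated replicate 4 at 14.04 CPM. Of 22 adventitial fibroblast genes, which mark fibroblasts around vessels, 5 rose (median 1.603, and 1.36). Il33, an alarm cytokine held in the nuclei of stromal cells, had 24.3, 20.5, 21.9 and 17.4 CPM after 5 Gy, against 10.99, 6.19, 7.55 and 9.005 CPM in untreated tumours. The irradiated libraries lay close together, the rise was 1.31 ± 0.24 (adjusted p = 0.0254), and it was 1.45 ± 0.29 without replicates 2 and 4 (adjusted p = 0.118). Cd34, a sialomucin of fibroblast progenitors and endothelium, rose by 1.25 ± 0.22 [1.18 ± 0.27], and Sema3c, Cd248 and Fbln2 were the others. Of 19 myofibroblast genes 4 rose, namely Postn, Col12a1 and the contractile genes Tagln and Acta2, with a median of 1.98, and 1.501 without replicates 2 and 4. Tagln and Acta2 belong also to the pericyte and smooth muscle list, whose 12 markers summed to 376 to 453 CPM after 5 Gy and 201 to 307 CPM in untreated tumours. Of 24 matricellular genes 2 rose, Thbs2 (thrombospondin 2, 1.73 ± 0.37 [1.97 ± 0.44]) and Smoc2 (2.72 ± 0.53 [1.70 ± 0.50]), while Tnc, tenascin C, was at 1.47 ± 0.35 [1.78 ± 0.40] and was not called (adjusted p = 0.0515). Of 35 stromal transcription factors 2 rose. Prrx1, a homeobox factor of mesenchyme, had 22.95, 29.2, 16.3 and 14.1 CPM after 5 Gy, against 5.61, 6.27, 5.15 and 6.05 CPM in untreated tumours, a rise of 1.84 ± 0.36, with 1.77 ± 0.41 without replicates 2 and 4. Klf4, which also acts in keratinocytes, had 9.79, 61.2, 10.3 and 32.4 CPM after 5 Gy, against 2.74, 4.4999, 2.69 and 6.68 CPM in untreated tumours, was highest in replicates 2 and 4, and had 2.77 ± 0.59 with them and 1.28 ± 0.49 without. Of the 15 general fibroblast markers 12 rose (80% of the list, with a median of 2.04, and 2.14 without replicates 2 and 4), which is 12 of the 19 called genes of cell type lists. They summed to 3410.1 to 6789.6 CPM after 5 Gy, or 6789.6 and 4330.2 CPM in replicates 1 and 3, and to 1544 to 2064 CPM in untreated tumours. The adipocyte and mast cell sums given above were also higher in all 4 irradiated libraries. With the adipocyte score, a mean log2 CPM of the markers, as a covariate no gene was called. That score was 2.50 to 4.63 after 5 Gy and -1.30 to 2.17 in untreated tumours. As it did not overlap between the groups, this fit cannot separate adipocytes from the dose. The part of mast cells in the result was not tested.

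**Figure D3:**
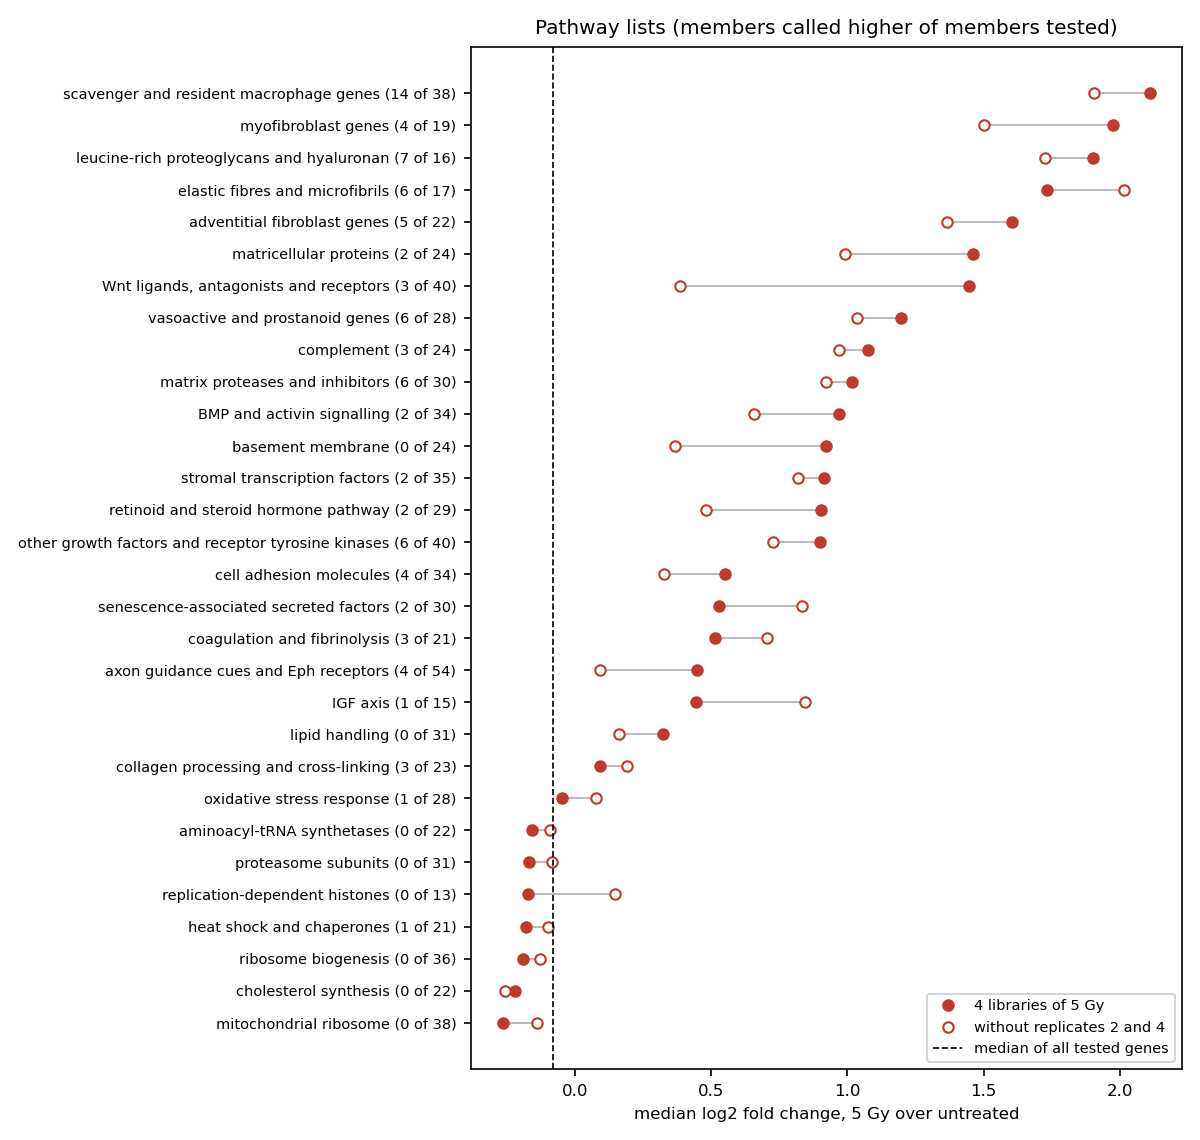
Median log2 fold change of 5 Gy over untreated (x axis) for each pathway list with all 4 irradiated libraries (filled) and without replicates 2 and 4 (open), with the number of members called higher of those tested. The scavenger and resident macrophage genes have the highest median with all libraries, 2.11, while elastic fibres have the highest without replicates 2 and 4, 2.01 against 1.91, and the dashed line marks the median of all tested genes, -0.08.

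Scavenger receptors and other genes of resident macrophages gave the largest count of the pathway lists. Of 38 tested members 14 rose and all 38 were above 0, with a median of 2.11, and 1.91 without replicates 2 and 4, where 37 were above 0. Over all tested genes 1.25% were called higher and the median was -0.08. The 14 include Igf1, which fibroblasts also make, and Ednrb, an endothelin receptor, both given further below. The promoters of 4 of the 14 called members are shown, chosen with their values known. They are the 250 bases before the RefSeq start on the gene's own strand (RefSeq, GRCm38.p6, the assembly called mm10). Capitals mark GAGGAA or its reverse complement TTCCTC, the core bound by PU.1, a transcription factor of macrophages.
Mrc1, chr2:14229164-14229413, plus strand: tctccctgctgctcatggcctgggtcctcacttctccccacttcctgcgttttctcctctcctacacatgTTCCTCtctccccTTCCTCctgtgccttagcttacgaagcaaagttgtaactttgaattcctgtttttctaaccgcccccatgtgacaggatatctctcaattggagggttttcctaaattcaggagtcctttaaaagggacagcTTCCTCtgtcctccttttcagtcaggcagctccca
F13a1, chr13:37050245-37050494, minus strand: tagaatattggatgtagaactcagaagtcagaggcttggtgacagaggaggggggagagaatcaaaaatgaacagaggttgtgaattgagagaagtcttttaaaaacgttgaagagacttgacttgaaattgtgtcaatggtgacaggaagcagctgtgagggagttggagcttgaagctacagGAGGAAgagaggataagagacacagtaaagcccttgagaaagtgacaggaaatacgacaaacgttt
Stab1, chr14:31168642-31168891, minus strand: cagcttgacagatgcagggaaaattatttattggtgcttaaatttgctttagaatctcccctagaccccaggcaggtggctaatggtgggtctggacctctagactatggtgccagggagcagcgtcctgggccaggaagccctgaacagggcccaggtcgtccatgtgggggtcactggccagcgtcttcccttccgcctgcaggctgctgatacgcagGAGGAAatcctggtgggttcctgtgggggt
Cd163, chr6:124304401-124304650, plus strand: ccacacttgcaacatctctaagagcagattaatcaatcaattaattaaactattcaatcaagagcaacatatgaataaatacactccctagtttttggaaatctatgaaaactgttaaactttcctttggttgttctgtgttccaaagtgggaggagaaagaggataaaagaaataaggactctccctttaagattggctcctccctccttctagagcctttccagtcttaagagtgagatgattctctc
Mrc1 holds 3 such cores, F13a1 and Stab1 hold 1 each, and none of these letters are in the Cd163 window. Of the 14 called members 10 had a promoter in the table, and 6 of these (60.0%) held the core on either strand. It was held by 22.8% of the 11623 promoters of tested genes and 26.7% of the 146 found for genes called higher. Of 4 other motifs searched on both strands of the same 10 promoters, CCAAT was also held by 6 (60.0%, against 35.8% of all), TGANTCA by 2 of 10 (4.67% of all), and TATAAA and CACGTG by 0 (against 7.07% and 8.12%). Cores overlapping on the same bases were counted once, and a match is a description of letters and not a bound site.

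Mrc1, the mannose receptor, had 101, 128, 74.1 and 73.4 CPM after 5 Gy, against 21.1, 19.9, 24.2 and 25.8 CPM in untreated tumours. Cd163, the receptor for haemoglobin bound to haptoglobin, had 14.98, 42.7, 11.5 and 13.7 CPM after 5 Gy, against 2.21, 1.15, 1.31 and 2.11 CPM in untreated tumours. The untreated libraries lay close together in both genes, and in Cd163 replicate 2 was far above the other irradiated libraries. Their log2 fold changes were 2.05 ± 0.33 and 3.61 ± 0.58 (adjusted p = 0.0227 for both), and 1.94 ± 0.38 and 2.96 ± 0.56 without replicates 2 and 4 (adjusted p = 0.118 and 0.115). F13a1, the A subunit of clotting factor XIII, which is abundant in resident macrophages, had 98.7, 159, 79.1 and 67.4 CPM after 5 Gy, against 9.79, 20.8, 13.97 and 20.8 CPM in untreated tumours, a rise of 2.63 ± 0.57 [2.44 ± 0.63] (adjusted p = 0.0409). Folr2, the folate receptor beta, had 37.5, 79.2, 39.5 and 20.7 CPM after 5 Gy, against 6.55, 7.81, 4.54 and 11.6 CPM in untreated tumours, a rise of 2.54 ± 0.54 [2.34 ± 0.56]. Stab1, stabilin 1, had 89.3, 68.3, 61.8 and 45.2 CPM after 5 Gy, against 31.3, 31.5, 28.1 and 26.7 CPM in untreated tumours, a smaller rise of 1.17 ± 0.20 that was 1.36 ± 0.22 without replicates 2 and 4. No untreated library reached an irradiated one in these 5 genes. Cbr2, a carbonyl reductase, Slc40a1, the iron exporter ferroportin, Gpr34, Colec12 and Scara3 rose by 2.62 [2.38], 1.85 [1.69], 2.71 [2.42], 1.71 [1.59] and 3.03 [2.89]. Cd209b rose by 4.06 ± 0.90 [3.16 ± 0.93], but it has close relatives in the mouse genome and its count is uncertain. Selenop, which carries selenium, had 461, 688, 385 and 225 CPM after 5 Gy, against 198, 157, 136 and 179 CPM in untreated tumours, a rise of 1.39 ± 0.30 [1.34 ± 0.28]. Without all keratin-holding libraries, Mrc1, Cd163 and Selenop were among the 22 called genes (adjusted p = 0.0477 each). Of the 18 general macrophage and monocyte markers 3 were called, with a median of 1.02, and 0.75 without replicates 2 and 4. Their summed level was 1474 to 2859 CPM after 5 Gy and 565 to 1636 CPM in untreated tumours, so the groups overlapped there. In 5 Gy replicates 1 and 3 it was 2003 and 1643 CPM, which is just above the highest untreated sum. Csf1r, the receptor that maintains macrophages, was at 1.46 ± 0.35 [1.31 ± 0.38] and was not called (adjusted p = 0.0517), and Ptprc, the common leukocyte antigen CD45, was at 0.76 ± 0.38 [0.50 ± 0.43] (adjusted p = 0.376).

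**Figure D4:**
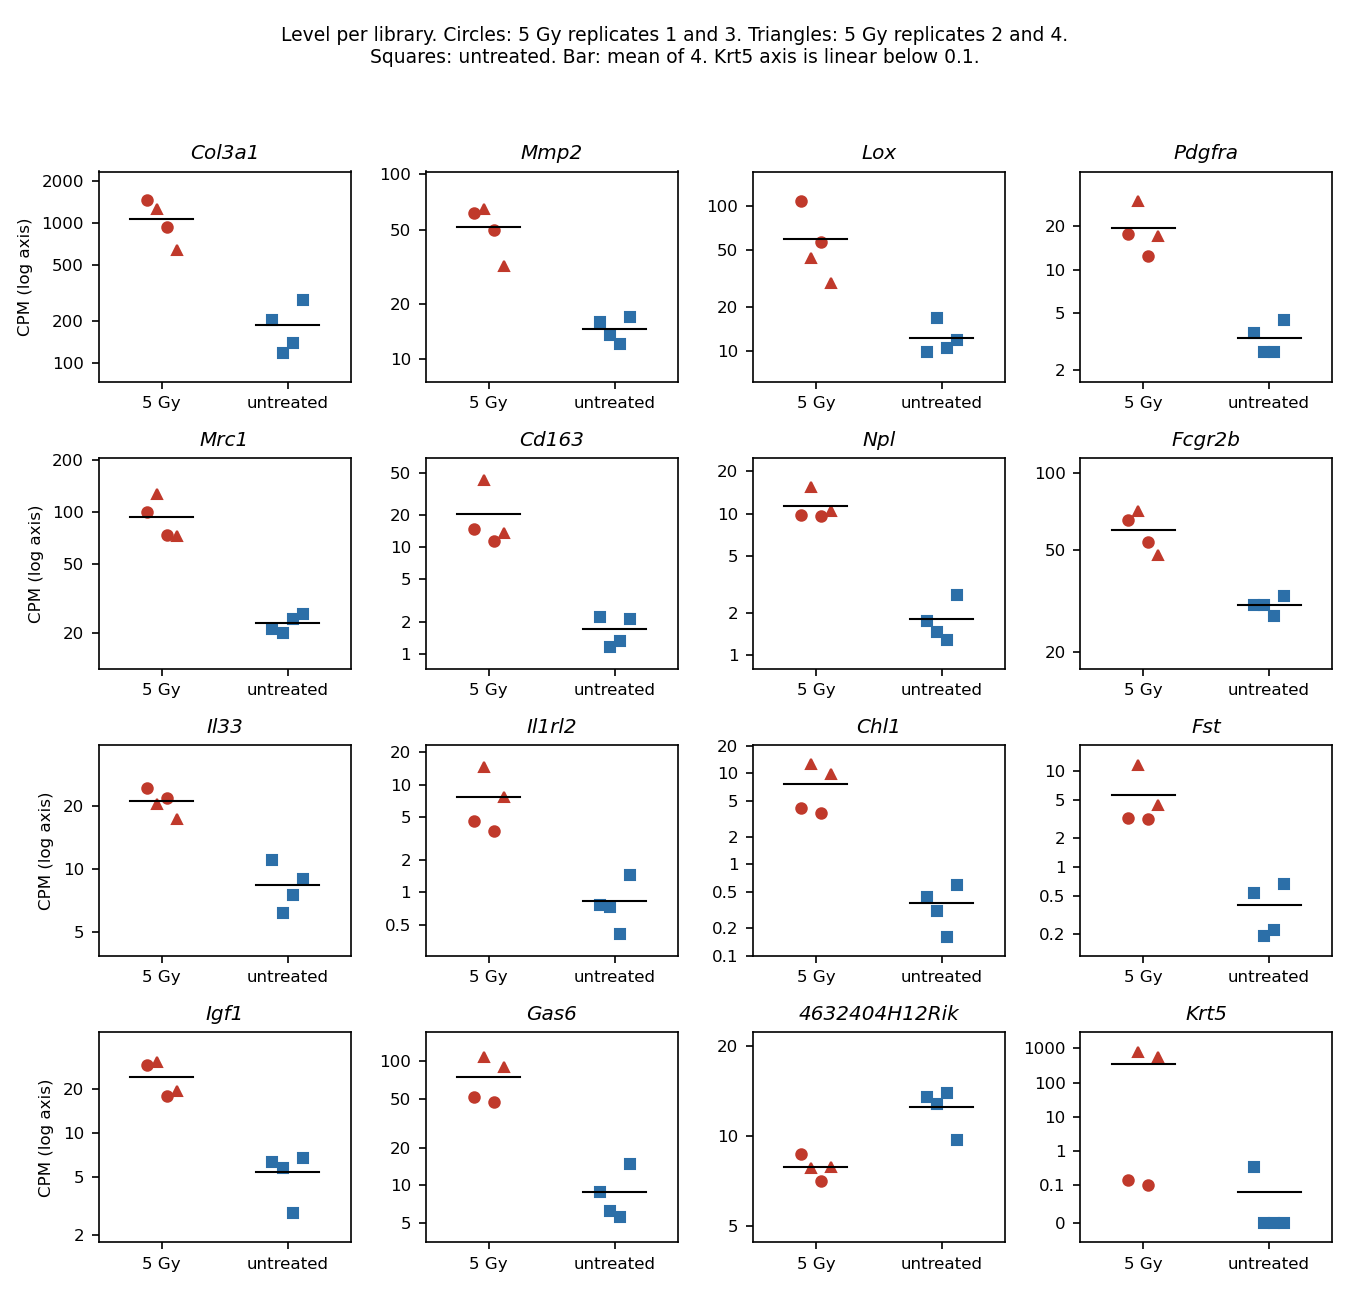
CPM in each library (log axes) for 16 genes, 5 Gy on the left and untreated on the right, with the mean of 4 as a bar. In the first 14 genes the irradiated libraries lie above the untreated ones, in 4632404H12Rik they lie below, and Krt5 is high in 5 Gy replicates 2 and 4 alone.

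Of the called genes, 114 stood in no list. Those described here and in the next paragraph were picked out after their values had been seen and stand for no tested group. Npl, the lyase that breaks down sialic acid (ENSMUSG00000042684, minus strand of chromosome 1 at 153503015 to 153550045 in mm10), had the second smallest p of all genes. Its levels were 9.82, 15.5, 9.72 and 10.5 CPM after 5 Gy, against 1.74, 1.46, 1.28 and 2.67 CPM in untreated tumours. Replicates 1, 3 and 4 were nearly equal and replicate 2 was higher, and the log2 fold change was 2.67 ± 0.36 (edgeR adjusted p = 0.0162), with 2.45 ± 0.42 without replicates 2 and 4 (adjusted p = 0.0952). Rnase4, a secreted ribonuclease, had 40.9, 74.7, 34.3 and 35.1 CPM after 5 Gy, against 9.42, 7.38, 6.33 and 12.2 CPM in untreated tumours, a rise of 2.39 ± 0.34 [2.09 ± 0.36], and shares 32.6% of its exon bases with Ang. Pcsk5, a convertase that activates secreted proproteins, had 10.04, 5.08, 4.79 and 4.88 CPM after 5 Gy, against 0.902, 0.462, 0.352 and 0.809 CPM in untreated tumours, was highest in replicate 1, and rose by 3.29 ± 0.47, or 3.54 ± 0.54 without replicates 2 and 4. These 3 and Nxpe5, Reps2 (an endocytosis adaptor), Itm2a and Col5a2 were the no-list genes among the 22 (edgeR adjusted p = 0.0477 each without the keratin-holding libraries). Fcgr2b, the inhibitory Fc receptor, had 65.7, 71.2, 53.4 and 47.9 CPM after 5 Gy, against 30.3, 30.3, 27.5 and 33.1 CPM in untreated tumours. Its spread was small in both groups and it rose by 0.97 ± 0.15 (adjusted p = 0.0227), with 0.97 ± 0.17 without replicates 2 and 4. Dab2, an adaptor for endocytosis of receptors, rose by 1.26 ± 0.21, with 1.24 ± 0.25 without those libraries. Cxcl12, a chemokine of stromal cells, had the irradiated libraries within a narrow band, at 48.6, 59.3, 51.9 and 49.003 CPM after 5 Gy, against 10.6, 10.6, 8.79 and 21.1 CPM in untreated tumours.

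Il1r1, the receptor for interleukin 1, had 15.02, 13.6, 10.4 and 9.43 CPM after 5 Gy, against 3.24, 2.69, 2.11 and 4.64 CPM in untreated tumours, and rose by 1.93 ± 0.39 (adjusted p = 0.0331), with 2.001 ± 0.47 without replicates 2 and 4. Il1rl2, the receptor for interleukin 36, had 4.55, 14.5, 3.71 and 7.73 CPM after 5 Gy, against 0.768, 0.731, 0.416 and 1.44 CPM in untreated tumours, was higher in replicates 2 and 4 than in 1 and 3, and rose by 3.18 ± 0.54, with 2.30 ± 0.53 without them. Il4ra, the receptor chain shared by interleukins 4 and 13, had 59.3, 60.6, 41.9 and 40.1 CPM after 5 Gy, against 17.5, 27.2, 16.4 and 29.2 CPM in untreated tumours, a rise of 1.16 ± 0.24 [1.16 ± 0.29] (adjusted p = 0.0386). Csf2rb, the signalling chain for GM-CSF and interleukins 3 and 5, had 16.1, 20.9, 14.3 and 15.4 CPM after 5 Gy, against 6.42, 9.65, 5.95 and 6.86 CPM in untreated tumours, a rise of 1.21 ± 0.23 [1.08 ± 0.29]. No irradiated value of these 4 genes was as low as an untreated one. Lifr, the leukaemia inhibitory factor receptor, rose by 1.68 ± 0.37 [1.35 ± 0.42]. Its replicate 2 at 26.1 CPM stood above the other irradiated libraries, which lay between 12.997 and 14.5 CPM, against 4.03 to 6.08 CPM in untreated tumours. Of the 2 ligands of Csf1r, Il34 had 2.85, 7.65, 2.84 and 8.24 CPM after 5 Gy, against 1.14, 0.808, 1.02 and 1.69 CPM in untreated tumours, a rise of 2.21 ± 0.45 (adjusted p = 0.0339) that was 1.29 ± 0.44 without replicates 2 and 4. Csf1, the other ligand, was at 0.38 ± 0.19 [0.21 ± 0.23] and did not pass (adjusted p = 0.354). Lbp, which binds bacterial lipopolysaccharide in plasma, had 17.4, 22.6, 16.5 and 24.8 CPM after 5 Gy, against 1.504, 0.846, 0.576 and 4.43 CPM in untreated tumours, a rise of 3.46 ± 0.66 [3.20 ± 0.76]. Tfec, a transcription factor of the macrophage lineage, and Fcrls, a scavenger receptor related to Fc receptors, rose by 1.58 ± 0.30 [1.70 ± 0.34] and 2.45 ± 0.48 [2.24 ± 0.53].

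Growth factors, their antagonists and their receptors came next. Of 40 growth factor and receptor tyrosine kinase genes 6 rose, namely Gas6, Pdgfra, Pdgfd, Egfr, Fgfr1 and Fgf7 (median 0.90, and 0.73 without replicates 2 and 4). Gas6, the ligand of the receptors AXL and MERTK, had 51.8, 107, 47.2 and 90.3 CPM after 5 Gy, against 8.89, 6.19, 5.53 and 14.9 CPM in untreated tumours, a rise of 3.06 ± 0.48 (adjusted p = 0.0227), with 2.48 ± 0.51 without replicates 2 and 4. Pdgfra, the platelet-derived growth factor receptor of fibroblasts, had 17.9, 30.2, 12.5 and 17.2 CPM after 5 Gy, against 3.64, 2.65, 2.69 and 4.502 CPM in untreated tumours, a rise of 2.53 ± 0.44 [2.17 ± 0.50]. Both were among the 22 called without the keratin-holding libraries. Egfr, the epidermal growth factor receptor, had 8.33, 31.1, 5.503 and 9.09 CPM after 5 Gy, against 1.64, 1.31, 1.12 and 2.08 CPM in untreated tumours, so replicate 2 stood alone, and its fold was 3.14 ± 0.60 with and 2.17 ± 0.55 without replicates 2 and 4. Of 34 BMP and activin genes 2 rose (median 0.97, and 0.66 without replicates 2 and 4). Fst, follistatin, which binds and blocks activin, had 3.24, 11.6, 3.17 and 4.37 CPM after 5 Gy, against 0.535, 0.192, 0.224 and 0.668 CPM in untreated tumours, a rise of 3.77 ± 0.63 (adjusted p = 0.0227), with 2.97 ± 0.62 without replicates 2 and 4, and it was among the 22. Fstl1, a follistatin relative, rose by 1.06 ± 0.25 [1.12 ± 0.30], while Grem1, a BMP antagonist, and Bmp3 were at 3.37 ± 0.83 [1.96 ± 0.84] and 5.20 ± 1.34 [4.09 ± 1.48] and did not pass. Igf1, insulin-like growth factor 1, which fibroblasts and macrophages make, had 29.1, 30.7, 17.9 and 19.5 CPM after 5 Gy, against 6.35, 5.73, 2.85 and 6.68 CPM in untreated tumours. It rose by 2.17 ± 0.42 (adjusted p = 0.0328), with 2.12 ± 0.50 without replicates 2 and 4, as the gene called among 15 of the IGF axis (median 0.44, and 0.84 without replicates 2 and 4). Igfbp7 at 0.82 ± 0.20 [0.99 ± 0.24] missed the threshold (adjusted p = 0.0517). Of 40 Wnt pathway genes 3 rose, and the median was 1.45 with all libraries and 0.39 without replicates 2 and 4. Sfrp1, a secreted Wnt antagonist, had 16.1, 27.6, 4.05 and 9.94 CPM after 5 Gy, against 1.103, 0.538, 0.767 and 0.915 CPM in untreated tumours, a rise of 4.11 ± 0.72 and 3.59 ± 0.75 without those libraries. Ror1 and Wnt16, a receptor and a ligand, rose by 3.11 ± 0.70 [2.59 ± 0.74] and 3.83 ± 0.89 [3.72 ± 1.08], with every untreated library under 1 CPM in both. Irradiated levels were low too. Wnt16 had 0.747, 0.533, 0.270 and 0.644 CPM after 5 Gy, and Ror1 had 0.506 and 0.610 CPM in replicates 3 and 4.

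Adhesion and guidance molecules known from the nervous system were called as well. Chl1, a neural cell adhesion molecule (ENSMUSG00000030077, plus strand of chromosome 6 at 103510876 to 103733035 in mm10), had the smallest p of all tested genes. Its levels were 4.199, 12.8, 3.71 and 9.83 CPM after 5 Gy, against 0.434, 0.308, 0.160 and 0.598 CPM in untreated tumours. Replicates 2 and 4 were the highest, replicates 1 and 3 were still above every untreated library, and the rise was 4.33 ± 0.57 (edgeR adjusted p = 0.0162), with 3.39 ± 0.54 without replicates 2 and 4 (adjusted p = 0.0952). It was one of 4 called among 34 adhesion genes (median 0.55, and 0.33 without replicates 2 and 4), with Cdh11, a cadherin of fibroblasts (1.80 ± 0.39 [1.67 ± 0.47]), Cadm3 (3.21 ± 0.70 [2.34 ± 0.75]) and Nectin1 (4.18 ± 0.91 [1.49 ± 0.69]). Of 54 axon guidance and Eph genes 4 rose, namely Slit3, Sema3c, Sema5a and Ephb3 (median 0.45, and 0.09). Sema3c, Sema5a and Ephb3 were at least 2-fold higher in replicates 2 and 4 than in 1 and 3. Their log2 fold changes were 1.94 ± 0.42 [1.27 ± 0.44], 3.38 ± 0.77 [2.17 ± 0.77] and 3.77 ± 0.70 [2.29 ± 0.59]. Slit3, a secreted guidance cue, had 15.7, 22.2, 10.6 and 11.4 CPM after 5 Gy, against 4.21, 3.46, 3.58 and 5.66 CPM in untreated tumours, a rise of 1.82 ± 0.34, with 1.63 ± 0.39 without replicates 2 and 4. The 13 markers of peripheral nerve and Schwann cells had a median of 0.89 with all libraries and 0.26 without replicates 2 and 4, where 6 of 13 were below 0, and 0 were called. The part of nerve in the guidance genes was not tested.

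Genes of complement, clotting and vessel tone were among those called. Of 24 complement genes 3 rose (median 1.08, and 0.97 without replicates 2 and 4). Among them Cd55, which restrains complement on cell surfaces, and C6, a part of the membrane attack complex, rose by 3.40 ± 0.68 [2.87 ± 0.75] and 3.90 ± 0.88 [3.20 ± 0.90]. C6 was highest in replicate 2, and its levels were 3.63, 16.5, 5.17 and 3.36 CPM after 5 Gy, against 0.301, 0.192, 0.416 and 0.985 CPM in untreated tumours. Of 21 clotting genes, F13a1, Serpine2 and Anxa8 were called (median 0.51, and 0.71 without replicates 2 and 4). Of 28 vasoactive and prostanoid genes 6 rose (median 1.198, and 1.04). Calcrl, the receptor for CGRP and adrenomedullin, had 9.61, 13.01, 7.97 and 8.55 CPM after 5 Gy, against 4.58, 4.81, 4.797 and 4.78 CPM in untreated tumours, where the untreated libraries were nearly equal, and it rose by 1.04 ± 0.20 [0.89 ± 0.23] (adjusted p = 0.0315). Gucy1a1, a subunit of the nitric oxide receptor, rose by 1.53 ± 0.28 [1.73 ± 0.34], and Ednrb, an endothelin receptor, by 1.86 ± 0.39 [1.78 ± 0.41]. Agtr1a and Npr1, receptors for angiotensin and natriuretic peptide, rose by 2.15 [2.26] and 1.32 [1.04], and Ptgs1, cyclooxygenase 1, by 2.72 ± 0.60, or 1.197 ± 0.53 without replicates 2 and 4. The 13 endothelial markers summed to 439.8 to 635 CPM after 5 Gy and 402 to 489 CPM in untreated tumours, so the groups overlapped in the sum. Taken singly, 1 of the 13, Tek, was called, at 1.94 ± 0.43 [1.68 ± 0.49]. The median of the 13 was 0.59, and 0.83 without replicates 2 and 4. In 5 of them every irradiated library lay above every untreated one, as in 5.97% of all tested genes. Of 28 oxidative stress genes the secreted peroxidase Gpx3 rose (2.44 ± 0.50, and 2.04 ± 0.57 without replicates 2 and 4). Of 29 retinoid and steroid genes Cyp1b1 and Rarres1 rose. Rarres1 had 0.676, 8.43, 0.371 and 4.95 CPM after 5 Gy, against 0.167, 0.0385, 0 and 0.211 CPM in untreated tumours. It was highest in replicates 2 and 4, with 5.06 ± 1.10 with them and 2.28 ± 0.96 without them. Cyp1b1, a cytochrome of stromal cells, had 23.8, 16.2, 9.25 and 10.9 CPM after 5 Gy, against 4.04, 1.23, 2.72 and 2.39 CPM in untreated tumours, a rise of 2.53 ± 0.46, with 2.66 ± 0.54 without those libraries. Of 30 secreted factors of the senescence list, Serpine2 and Mmp3 were called, and Cdkn2b, a cell cycle inhibitor, was at 1.71 ± 0.46 [1.24 ± 0.56] (adjusted p = 0.0691). Of 31 lipid handling genes none was called, with Abca9 at 2.91 ± 0.69 [2.55 ± 0.75] nearest (adjusted p = 0.0502).

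The 54 genes that were at least 2-fold higher in replicates 2 and 4 were high in the libraries that hold keratin transcripts. Anxa8, an annexin known from stratified epithelium, had 1.03, 139, 0.439 and 100.4 CPM after 5 Gy, against 0.167, 0, 0.0640 and 0 CPM in untreated tumours. Replicates 1 and 3 lay far below replicates 2 and 4 and above every untreated library, and the log2 fold change was 9.87 ± 2.19 with replicates 2 and 4 and 3.52 ± 1.49 without them. Hspb1, a small heat shock protein, had 2.85, 32.04, 8.57 and 42.02 CPM after 5 Gy, against 1.704, 3.04, 2.24 and 3.38 CPM in untreated tumours, with 3.04 ± 0.71 and 1.15 ± 0.60, and it was the one gene called among 21 heat shock genes and chaperones, whose median was -0.18, and -0.10 without replicates 2 and 4. Tmem45a, AI661453 and Nectin1 had 3.74, 4.5030 and 4.18 with all libraries and 1.87, 1.22 and 1.49 without replicates 2 and 4. In 52 of the 54 genes replicates 1 and 3 still lay above every untreated library. In the edgeR fit without replicates 2 and 4, 50 had an unadjusted p under 0.05. All libraries of that fit were also in the test that chose these genes, which largely fixes both counts.

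On the lower side, 1 gene passed, and the shifts were small. 4632404H12Rik (ENSMUSG00000042579, minus strand of chromosome 3 at 89767511 to 89773240 in mm10) had 8.72, 7.81, 7.06 and 7.87 CPM after 5 Gy, against 13.5, 12.7, 13.9 and 9.67 CPM in untreated tumours. Every irradiated library lay below every untreated one, and it fell by 0.66 ± 0.15 on the log2 scale (edgeR adjusted p = 0.0457), with -0.66 ± 0.20 without replicates 2 and 4 (adjusted p = 0.392). DESeq2 called 44 genes lower (0.273%) and limma-voom 87 (0.54%), where every irradiated library lay below every untreated one in 3.13% of tested genes. Pgpep1, a peptidase that removes pyroglutamate, had 40.2, 39.9, 41.4 and 44.6 CPM after 5 Gy, against 55.3, 51.96, 52.9 and 56.6 CPM in untreated tumours, with a log2 fold change of -0.38 ± 0.09 that missed the threshold (adjusted p = 0.0517) and -0.41 ± 0.13 without replicates 2 and 4. Pcyox1l was at -0.60 ± 0.15 [-0.60 ± 0.20], Pomk, a kinase of O-mannose glycans, at -0.45 ± 0.12 [-0.43 ± 0.15], B4galt4, a galactosyltransferase, at -0.58 ± 0.17 [-0.58 ± 0.21] and Gins3, a subunit of the replicative helicase, at -0.47 ± 0.14 [-0.45 ± 0.19], with adjusted p = 0.0579, 0.0618, 0.0851 and 0.0964. Lyrm9, Prcd, Fam174b and Ccdc134 had log2 fold changes of -0.44 [-0.37], -1.02 [-1.08], -0.40 [-0.29] and -0.47 [-0.50], and none passed. Of these 10 genes all were below 0 without replicates 2 and 4 as well. All libraries of that fit were also in the one that ranked these genes, which largely fixes their sign.

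Housekeeping groups lay near or slightly below the median of all genes, and no member of them was called. All 38 genes of the mitochondrial ribosome were below 0, with a median of -0.26, and -0.14 without replicates 2 and 4. All 36 ribosome biogenesis genes and all 22 aminoacyl-tRNA synthetases were below 0 too, with medians of -0.19 and -0.16, as were 30 of 31 proteasome subunits (-0.17) and 20 of 22 cholesterol synthesis genes (-0.22). Without replicates 2 and 4 the medians of these 4 lists were -0.13, -0.090, -0.085 and -0.26, with 33 of 36, 22 of 22, 28 of 31 and 22 of 22 members below 0, and the median of all tested genes was -0.06. Over all tested genes 9955 of 16101 were below 0, with a median of -0.08. The 13 replication-dependent histone genes had a median of -0.17, and 0.15 without replicates 2 and 4. The 15 pigmentation markers of the tumour cells were all below 0, with a median of -0.35, and -0.29 without replicates 2 and 4. Pmel, which builds the fibrils of pigment granules, had 4109.5, 3716, 4469 and 4649.5 CPM after 5 Gy, against 4632, 5062, 4985 and 6119 CPM in untreated tumours, and its log2 fold change of -0.30 ± 0.13 [-0.28 ± 0.18] did not pass (adjusted p = 0.310). CPM are shares of a library, and the part of the higher stromal share in these shifts was not tested.

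The same dose was also given to tumours that had QH-II-066, and that comparison shares no library with the one above. Between 5 Gy with QH-II-066 and QH-II-066 alone, edgeR called 0 genes higher and 0 lower, with 446 (2.77%) higher and 142 (0.882%) lower at an unadjusted p under 0.05. DESeq2 called 49 higher and 1 lower there, and limma-voom called 0. Of the 202 genes higher after 5 Gy alone, 159 (78.7%) were above 0 in this comparison, against 46.7% of all tested genes, and their median was 0.33, against -0.02 over all tested genes. At an unadjusted p under 0.05, 12 of the 202 were higher, of which 10 belong to the 54 genes that were higher in replicates 2 and 4, and 1, Gpr183, was lower. Of the 4 combined-group libraries 3 hold keratin transcripts, while no library of the drug alone does. Combined replicate 4 had 6994198 counts, against 23035634 to 40799942 in the other 7 libraries compared here. The adipocyte markers summed to 1793 and 810.4 CPM in drug-alone replicates 3 and 4, and the skeletal muscle markers to 1490 CPM in drug-alone replicate 4. EdgeR called 0 genes in each direction when any 1 of the 8 libraries was left out, and the part of these libraries in the smaller folds was not tested. Among the 145 genes with similar levels in all irradiated libraries, the median was 0.23. Col3a1 was at 0.29 ± 0.40, Mrc1 at 0.21 ± 0.32, Cd163 at 0.81 ± 0.53 and Npl at 0.18 ± 0.34, none of them called. The test of the difference between both effects of 5 Gy, with and without the drug, called 0 genes, and the lowest adjusted p among the 202 was 0.445, so the smaller folds with the drug were not shown to differ.

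**Figure D5:**
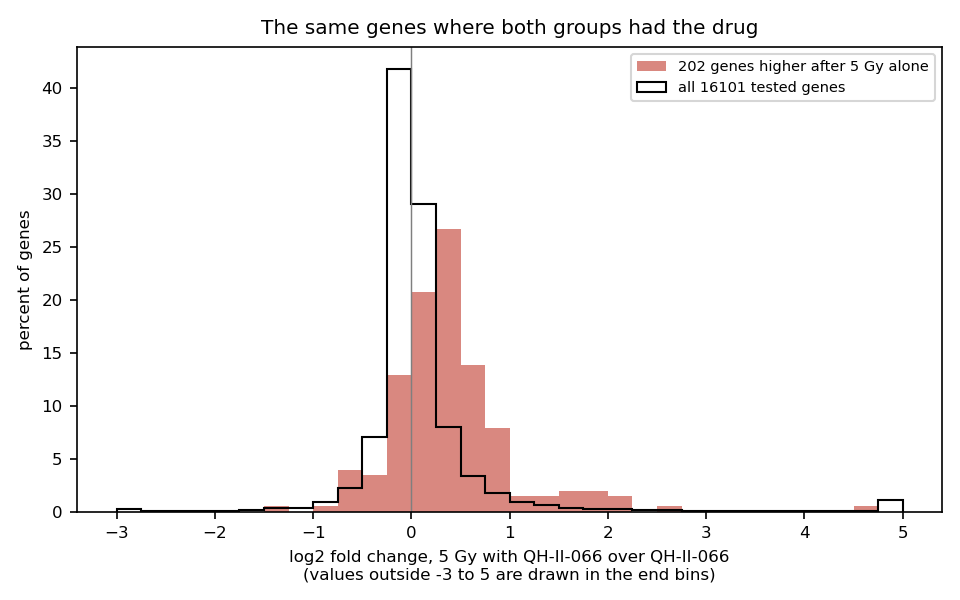
Distribution of log2 fold changes of 5 Gy with QH-II-066 over QH-II-066 alone, for the 202 genes higher after 5 Gy alone (filled) and all 16101 tested genes (line), in percent of genes. The 202 genes have a median of 0.33 and 78.7% of them lie above 0.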

How the data were processed

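The authors deposited counts of reads per gene, and per the file headers these came from featureCounts 1.6.0 with strand not used. STAR 2.4.1a, featureCounts, edgeR and the mm10 genome are named in the submitters' processing notes, and per the labels' protocols libraries were made by transcriptome capture of tumour RNA. From the counts, edgeR 4.0.16 in R 4.3.3 was used with filterByExpr, TMM scaling and a quasi-likelihood fit of all 16 libraries in 4 groups, with Benjamini-Hochberg adjusted p over all tested genes. Alternatives used DESeq2 1.42.0, limma 3.58.1, other filters, RLE scaling, covariates, a replicate block and left-out libraries. The steps were tested on simulated data. Figures were drawn with matplotlib 3.10.9.

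Genes were named by a rule: those called with and without 5 Gy replicates 2 and 4 (there were 0), the 12 highest called folds in no cell type list at a mean log2 CPM of at least 1, the 10 leading genes below 0 at the same minimum, up to 4 members of each pathway list at an unadjusted p under 0.01, and 9 defining markers. The 22 genes called without the 5 libraries with keratin transcripts, the cytokine receptors and other genes of no list, and list members beyond 4, were named after their values were seen. The members and lists were chosen with earlier results of these data known. Of the 134 genes followed through all alternatives, 30 share exon bases with another gene, and 4 share at least 20% with 1 gene. Values of a few genes are not reported here.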

Additional observations from a re-analysis of the deposited data

Results flagged for a closer look

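In 268 groups of 4 libraries, for 134 genes, 26 libraries stood far from the other 3 of their group, and chance flags about 1 in 20 groups. Replicate 2 of 5 Gy accounted for 12 of these and was the highest library in each. Its levels were 16.5 CPM for C6, 11.6 CPM for Fst, 29.1 CPM for Gpc3 and 249 CPM for Dcn. They were 4.23 CPM for Ror2, 1.91 CPM for Bmp3, 31.1 CPM for Egfr and 42.7 CPM for Cd163. They were 74.5 CPM for Apod, 15.5 CPM for Npl, 74.7 CPM for Rnase4 and 26.1 CPM for Lifr. Pcsk5 was highest in 5 Gy replicate 1, at 10.0 CPM.

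Among untreated tumours, replicate 4 was the highest for Cd55 at 2.11 CPM, Loxl1 at 10.6 CPM, Cadm3 at 1.09 CPM, Apod at 11.9 CPM and F2rl1 at 1.86 CPM, and the lowest for Col15a1 at 28.6 CPM. Untreated replicate 1 was the highest for Apoc1 at 0.802 CPM, Krt5 at 0.334 CPM, Krt14 at 0.368 CPM and Adipoq, an adipocyte hormone, at 8.19 CPM, and the lowest for Calcrl at 4.58 CPM. Untreated replicate 3 was the highest for Gins3 at 26.2 CPM and for Col17a1 at 0.160 CPM.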

How the results depend on the processing

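The count of 202 higher and 1 lower genes after 5 Gy depended on the setting. It was 0 and 0 without 5 Gy replicates 2 and 4, 22 and 0 without all 5 libraries with keratin transcripts, 1181 and 44 with DESeq2, 703 and 87 with limma-voom, 12 and 0 with the skin score, 2 and 0 with the muscle score, and 0 and 0 with the adipocyte score as a covariate. With the gene length slope it was 249 and 10, with no filter on low counts 180 and 0, with the 8 compared libraries alone 172 and 0, and with those less replicates 2 and 4, a setting chosen after seeing the data, 0 and 0. Of the 172 genes from the 8 compared libraries alone, 122 were among the 202. Leaving out 1 library at a time gave 0 to 731 higher and 0 to 8 lower genes. All called genes kept their sign in every setting that tested them. The replicate number as a replicate block gave 154 and 0, with 118 of the 154 among the 202. Deviations of same-numbered libraries from their group means had r = 0.0687, 0.00988, -0.199 and -0.0932, and those of differently numbered ones -0.200 to 0.183. Whether same-numbered libraries share more than a number cannot be told from these values. Between 5 Gy with QH-II-066 and QH-II-066 alone, DESeq2 called 49 higher and 1 lower genes, where edgeR called 0.

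Signs turned for marker genes of skin and muscle, none of them called. Without 5 Gy replicates 2 and 4, without all 5 libraries, and with the skin score, Col17a1 was at -0.42, -0.41 and -0.90, Krt14 at -1.05, -1.04 and -1.74, and Acta1 at -0.12, -0.12 and -0.60. Acta1 was at -0.47 with the muscle score, -1.79 with the adipocyte score and -0.064 in the 8 compared libraries without replicates 2 and 4. Ckm was at -0.20 with the skin score and -2.23 with the adipocyte score, and Aldh3a1 at -0.084 with the skin score. The cause was not tested. A count of 0 allows up to 0.0940 to 0.115 CPM in the 8 compared libraries, and up to 0.447 CPM in combined-group replicate 4, which had 6994198 counts and is in the fit of 16 libraries.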

Other observations

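Some cell types with few transcripts also differed in their summed marker levels, given here as values with no test of the sums. The 6 tested neutrophil markers summed to 10.8 to 13.5 CPM after 5 Gy and 3.97 to 8.27 CPM in untreated tumours, with 0 called. The 6 tested lymphatic endothelium markers summed to 47.9 to 56.6 CPM after 5 Gy and 38.8 to 40.9 CPM in untreated tumours, again with 0 called. The groups did not overlap in either sum. Single members mostly did overlap. Every irradiated library lay above every untreated one in 0 of the 6 neutrophil and 1 of the 6 lymphatic genes. Over all tested genes that share was 5.97%. The median log2 fold change of the neutrophil genes was 1.14, and 1.27 without 5 Gy replicates 2 and 4. For the lymphatic genes it was 0.83, and 0.31 without them. The 14 T cell markers summed to 30.7 to 84.9 CPM after 5 Gy and 25.6 to 59.9 CPM in untreated tumours, and the 9 NK cell markers to 74.2 to 136 CPM after 5 Gy and 31.8 to 139.6 CPM in untreated tumours, so both overlapped.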
